A study of Homo sapiens with 6 samples.

Results

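Polyamines are small, positively charged molecules that growing cells make in large amounts. Ornithine decarboxylase turns ornithine into putrescine, and the synthases SRM and SMS add aminopropyl groups to give spermidine and then spermine. The aminopropyl groups come from decarboxylated S-adenosylmethionine, which the enzyme AMD1 makes. Acetylation by SAT1 followed by oxidation by PAOX, and direct oxidation by SMOX, take the pathway back, and antizymes send ornithine decarboxylase to the proteasome unless an antizyme inhibitor binds them. Tumour cells are known for high polyamine demand, and ODC1 and SRM are textbook target genes of the transcription factor MYC.

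The genes described here are 10 genes of this pathway, taken by name from the 27394 genes of the deposited table: ODC1, AMD1, SRM and SMS for synthesis, SAT1, SMOX and PAOX for catabolism, the antizymes OAZ1 and OAZ2, and the antizyme inhibitor AZIN1. All 10 were found and all 10 passed the filter on low values. The libraries came from PANC-1, an established human pancreatic cancer cell line that served as the only model. In 3 libraries the cells carried a control shRNA (shControl) and in 3 an shRNA against ZDHHC20, a palmitoyl acyltransferase (shZDHHC20). The study silenced ZDHHC20 with different hairpins, and the sample titles do not say which was used in these libraries. Effects of a hairpin other than on ZDHHC20 were not tested. The labels list the same medium and the same infection step for both groups. They give no time after infection and do not say whether the replicates were separate cultures, so the p-values measure only the spread between these libraries. The comparison asks which transcripts differ once ZDHHC20 is silenced.

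Each value is a normalized count, that is, a count divided by 1 factor per library and not by gene length. Within a library all values were whole multiples of 1 step, which lay between 0.939 and 1.06, and the sums over all genes ran from 17083277 to 18007664. ZDHHC20 itself was at 2001, 2033 and 1940 in shControl replicates 1, 2 and 3, and at 872, 779 and 893 in shZDHHC20 replicates 1, 2 and 3, so the libraries matched their labels. The duct keratins KRT8, KRT18 and KRT19 were abundant, with shControl means of 56187, 19660 and 5917, while KRT7 was at 86.5. The leukocyte marker PTPRC, the endothelial marker CDH5 and the acinar marker PRSS1 were at no more than 8.66 in any library and CD14 at no more than 41.3. The collagen gene COL1A1 was at 3931 ± 42.7 in the shControl group and 3260 ± 134 in the shZDHHC20 group (limma adjusted p = 0.00288), and the part of this in the results below was not tested. The other fibroblast marker measured, COL3A1, was at 76.4 ± 7.64 and 86.2 ± 6.46 (limma adjusted p = 0.563). CPA1, CELA3A, INS, GCG, CD3E, PECAM1 and DCN were not analysed here. One library stood apart within its group. The SD of the log2 difference between shZDHHC20 replicate 2 and its partners was 0.178 and 0.198, against 0.0722 between replicates 1 and 3, so each call below that changes without replicate 2 is given with and without it. Leaving it out raised the genes past a limma adjusted p of 0.05 from 2541 of 22189 tested to 4454 of 22258, so added calls were common throughout.

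SRM, the spermidine synthase, was the polyamine gene that changed most with ZDHHC20 silencing. It was at 2468, 2431 and 2425 in shControl replicates 1, 2 and 3. It was at 1321, 1202 and 1541 in shZDHHC20 replicates 1, 2 and 3. The shControl libraries lay close together, all shZDHHC20 libraries lay far below them, and replicate 2 was the lowest. The group means were 2441 ± 23.2 in shControl and 1355 ± 172 in shZDHHC20 (SD, n = 3 in each), so SRM fell to 55.5% of its control level. On the log2(normalized count + 0.1) scale the fold change was -0.86 (SE 0.0767, 95% CI -1.02 to -0.69, limma adjusted p = 1.62e-05), and SRM stood at rank 59 by p among the 22189 genes tested. No exact permutation test of 3 libraries against 3 can go below p = 0.1 (two-sided), the value SRM reached. In a bulk culture, fewer cells with the transcript and less of it per cell cannot be told apart.

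The fall of SRM did not hang on 1 library. The log2 fold change was -0.77 without shZDHHC20 replicate 2 and -0.95 without shZDHHC20 replicate 3, the ends of its range over all 15 alternatives, and the adjusted p was at most 0.0455. SRM (ENSG00000116649) maps to the minus strand of chromosome 1 at 11054584-11060024, on GRCh38 like all positions given here, with no other annotated gene over it. It has 2 pseudogenes by name, with which reads could be shared.

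**Figure D1:**
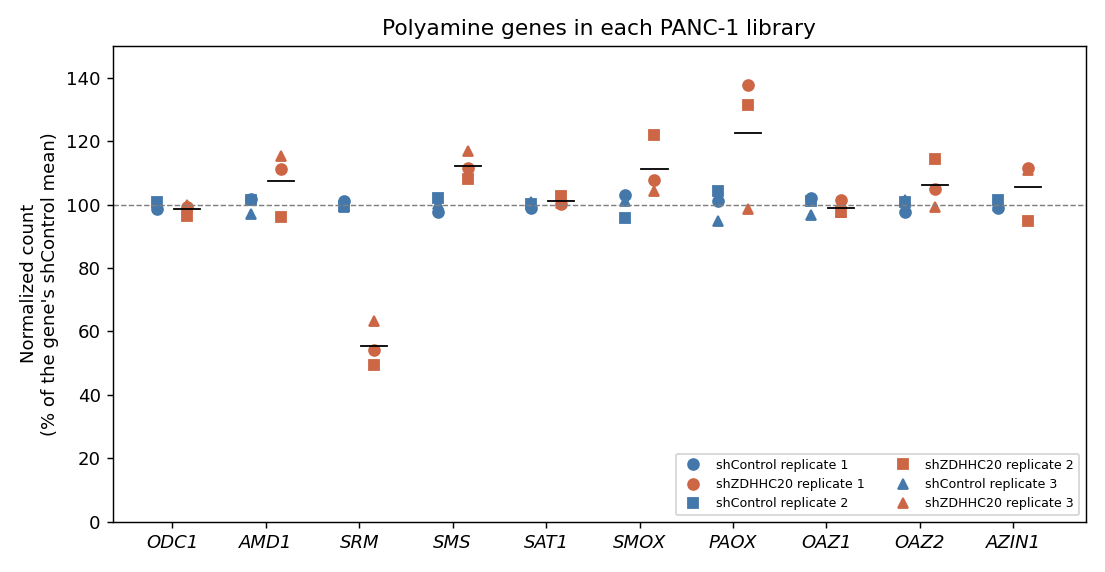
Each point is 1 library, with the normalized count on the vertical axis as a percentage of that gene's shControl mean (dashed line at 100) and the 10 polyamine genes along the horizontal axis. Blue points are shControl, orange points shZDHHC20, the shape gives the replicate, and the short black line is the shZDHHC20 mean. The 3 shZDHHC20 points of SRM lie between 49.3% and 63.1%, and no point of another gene lies below 94.7%.

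SRM and ODC1 are shown by sequence because both are known MYC targets and only the first of them fell. The E-box, the palindrome CACGTG that MYC binds with its partner MAX, reads the same on both strands. It was searched in the RefSeq promoter windows on GRCh38.p14, which run from 250 bases before to 50 after each annotated start, and 7 of the 10 genes had a window. SRM holds it once, at position -199 from its start. ODC1 has a window for each of 2 starts, and the one for the downstream start, inside the gene, holds it 2 times, at position -29 from that start and again just past it, while the window of the upstream start does not hold these letters. Among all 35116 windows, 7.26% hold it. Below are 60 bases around the match, on the gene's own strand with the E-box in capitals, for SRM at chr1:11060185-11060244 and for ODC1 at chr2:10448013-10448072, both on the minus strand and in no annotated exon.
SRM: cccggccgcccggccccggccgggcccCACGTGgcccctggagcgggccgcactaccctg
ODC1: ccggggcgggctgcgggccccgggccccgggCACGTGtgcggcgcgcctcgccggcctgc
The windows of SMS, AMD1, SAT1, OAZ1 and OAZ2 do not hold these letters. A match is a run of letters and no measurement of binding.

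ODC1, ornithine decarboxylase and the enzyme that starts the pathway, stayed near its control level. It was at 4164, 4266 and 4254 in shControl replicates 1, 2 and 3 and at 4202, 4081 and 4218 in shZDHHC20 replicates 1, 2 and 3. The groups overlapped, and the lowest value was that of shZDHHC20 replicate 2. The log2 fold change was -0.02 (SE 0.0449, limma adjusted p = 0.829), and its 95% CI ran from -0.12 to 0.08. A fall of the size seen in SRM is outside this interval. ODC1 (ENSG00000115758) maps to the minus strand of chromosome 2 at 10439968-10448504 and hosts a small nucleolar RNA, SNORA80B.

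SMS, the spermine synthase, moved the other way from SRM, by a small amount. It was at 3416, 3569 and 3500 in shControl replicates 1, 2 and 3 and at 3895, 3773 and 4087 in shZDHHC20 replicates 1, 2 and 3. The groups did not overlap, and all shZDHHC20 libraries were higher. The group means were 3495 ± 76.7 and 3919 ± 158 (SD, n = 3 in each), and the log2 difference was 0.16 (SE 0.0492, 95% CI 0.06 to 0.27, limma adjusted p = 0.0471). This call is at the edge of the threshold. The direction held in all 15 alternatives, but the adjusted p was above 0.05 in 9 of them, up to 0.249, among them the removal of any library other than shZDHHC20 replicate 2. SMS (ENSG00000102172) maps to the plus strand of the X chromosome at 21940573-21994835.

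Within each library the value of SRM divided by that of SMS was 0.722, 0.681 and 0.693 in the shControl replicates and 0.339, 0.319 and 0.377 in the shZDHHC20 replicates. The SRM to ODC1 quotient was 0.593, 0.57 and 0.57 in the shControl replicates and 0.314, 0.295 and 0.365 in the shZDHHC20 replicates. Because both genes of a pair were read in the same library, the factor of the library has no part in these quotients.

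AMD1, which makes the aminopropyl donor, was at 3508, 3501 and 3351 in shControl replicates 1, 2 and 3 and at 3835, 3319 and 3983 in shZDHHC20 replicates 1, 2 and 3. Replicates 1 and 3 of the shZDHHC20 group lay above all shControl libraries and replicate 2 below all of them. The log2 fold change was 0.10 (SE 0.064, 95% CI -0.04 to 0.24, limma adjusted p = 0.382). Without shZDHHC20 replicate 2 it was 0.18, with an adjusted p of 0.00205 in the same limma test. AMD1 (ENSG00000123505) maps to the plus strand of chromosome 6 at 110874770-110895713 and has 4 pseudogenes by name.

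**Figure D2:**
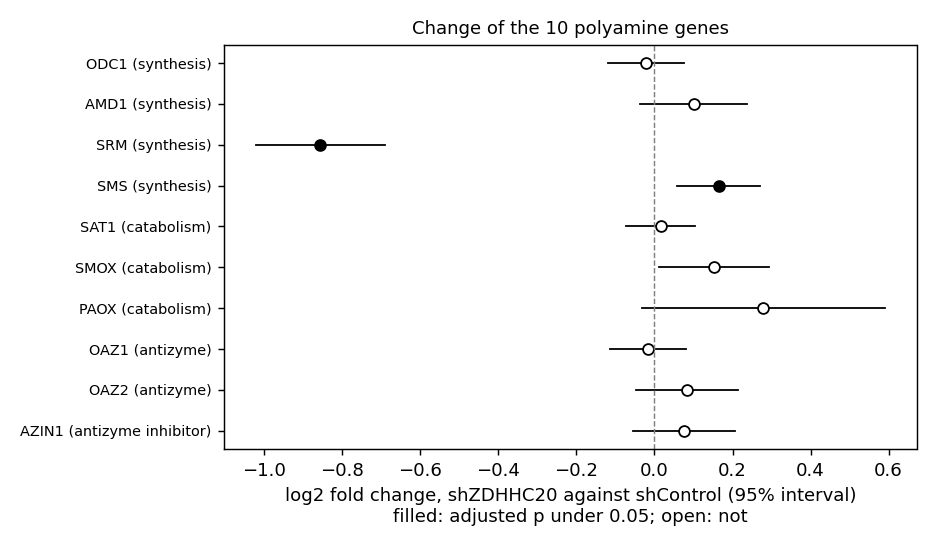
The horizontal axis is the log2 fold change of shZDHHC20 against shControl and each row is 1 polyamine gene, with its role in brackets. The circle is the estimate over 3 libraries against 3, the bar its 95% interval, and filled circles have an adjusted p under 0.05. SRM at -0.86 and SMS at 0.16 are filled, and SRM is the only row whose interval lies wholly below 0.

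Of the 10 genes, 1 was lower and 1 higher in the shZDHHC20 group at an adjusted p under 0.05, and 8 did not pass. Over all genes tested, 11.5% passed, 6.84% of them lower and 4.61% higher as shares of the genes tested. The cut-offs in the study's legend, an unadjusted p under 0.01 with at least a 1.5-fold difference, were met by SRM (1.81-fold lower) and no other gene of the 10, against 2.45% of all genes. The groups did not overlap in 3 of the 10, SRM, SMS and SMOX, against 28.6% of all genes. The median log2 fold change of the 10 was 0.08, with 3 below 0 and 7 above, and that of all genes tested was 0.01. For 1 or 2 calls among 10 genes these shares are too coarse to set the genes apart from the rest of the table.

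The catabolic genes did not pass the test. SAT1, the acetyltransferase that limits the return from spermine and spermidine, was at 8285, 8392 and 8423 in shControl replicates 1, 2 and 3 and at 8380, 8585 and 8412 in shZDHHC20 replicates 1, 2 and 3. These 6 values overlap, and the log2 fold change was 0.02 (SE 0.0408, 95% CI -0.07 to 0.10, limma adjusted p = 0.866). SAT1 (ENSG00000130066) maps to the plus strand of the X chromosome at 23783173-23786226.

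SMOX, the spermine oxidase, was at 1807, 1677 and 1773 in shControl replicates 1, 2 and 3 and at 1890, 2134 and 1828 in shZDHHC20 replicates 1, 2 and 3. All shZDHHC20 values lay above all shControl values, with replicate 2 the highest. The log2 fold change of 0.15 (SE 0.0652, unadjusted p = 0.0363, limma adjusted p = 0.172) missed the threshold, and its adjusted p ran from 0.092 to 0.436 over the alternatives. Without shZDHHC20 replicate 2 the log2 fold change was 0.09. SMOX (ENSG00000088826) maps to the plus strand of chromosome 20 at 4120980-4187747.

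PAOX, the oxidase of acetylated polyamines, had the lowest values of the 10 genes. It was at 131, 136 and 123 in shControl replicates 1, 2 and 3 and at 179, 171 and 128 in shZDHHC20 replicates 1, 2 and 3. Replicate 3 of the shZDHHC20 group lay within the shControl range and the other two above it. The log2 fold change was 0.28 (SE 0.145, limma adjusted p = 0.267), with the widest 95% CI of the 10, from -0.03 to 0.59. PAOX (ENSG00000148832) maps to the plus strand of chromosome 10 at 133379234-133391694 and overlaps AL360181.3 on the same strand, so its reads could be split between them.

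The antizymes showed no detectable change. OAZ1, the main antizyme, was at 6060, 6002 and 5731 in shControl replicates 1, 2 and 3 and at 6015, 5782 and 5782 in shZDHHC20 replicates 1, 2 and 3, a log2 fold change of -0.02 (95% CI -0.11 to 0.08, limma adjusted p = 0.868). OAZ2, its homologue, was at 1843, 1900 and 1911 in the shControl replicates and at 1977, 2153 and 1871 in the shZDHHC20 replicates, a log2 fold change of 0.08 (95% CI -0.05 to 0.21, limma adjusted p = 0.447). The groups overlapped in both genes, and without shZDHHC20 replicate 2 the log2 fold change of OAZ2 was 0.03. OAZ1 (ENSG00000104904) maps to the plus strand of chromosome 19 at 2269509-2273490 and overlaps AC005258.1 on the same strand and JSRP1 on the other, and OAZ2 (ENSG00000180304) maps to the minus strand of chromosome 15 at 64687573-64703281 over 3 antisense genes. Antizyme synthesis is set by a ribosomal frameshift that polyamines promote, which transcript counts do not measure.

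AZIN1, the antizyme inhibitor, followed the same library pattern as AMD1. It was at 5012, 5139 and 5043 in shControl replicates 1, 2 and 3 and at 5641, 4797 and 5617 in shZDHHC20 replicates 1, 2 and 3. Replicates 1 and 3 of the shZDHHC20 group lay above every shControl library, and replicate 2 below every one. The log2 fold change was 0.08 (SE 0.0603, 95% CI -0.05 to 0.21, limma adjusted p = 0.496). Without shZDHHC20 replicate 2 it was 0.15, with an adjusted p of 0.00135 in the same limma test. AZIN1 (ENSG00000155096) maps to the minus strand of chromosome 8 at 102826357-102893864 and overlaps an antisense gene, AZIN1-AS1, and 2 long non-coding genes on the other strand.

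**Figure D3:**
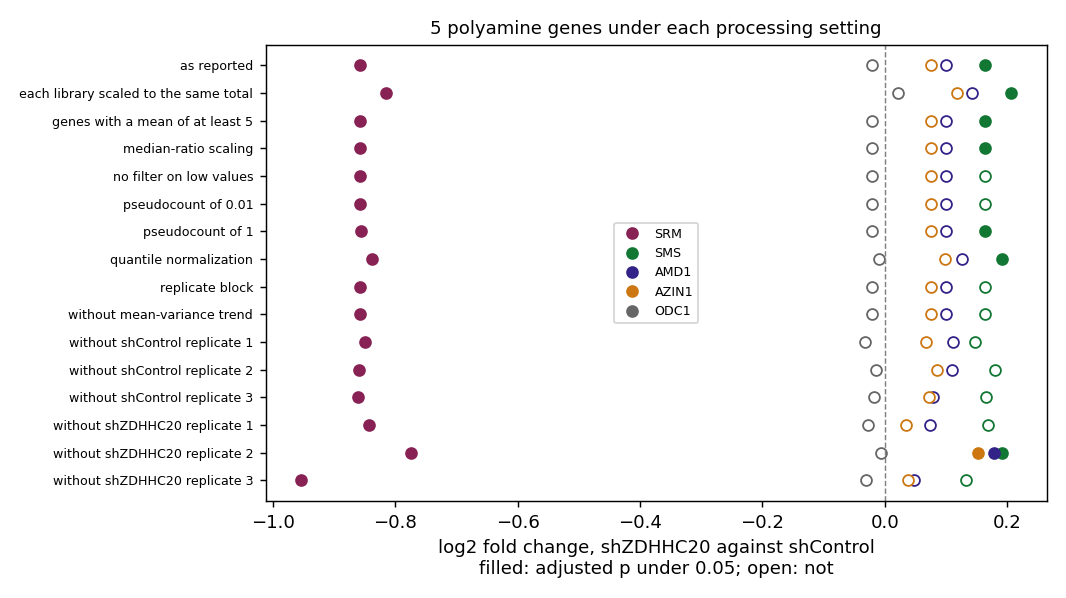
Each row is 1 processing setting, with the fit as reported on top, and the horizontal axis is the log2 fold change of shZDHHC20 against shControl. Colours mark 5 polyamine genes, and filled circles have an adjusted p under 0.05. SRM is filled in every row and SMS in 7 of the 16 rows, and AMD1 and AZIN1 are filled only without shZDHHC20 replicate 2.

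Levels of different genes were compared per kilobase of exon, using the exons of the protein-coding transcripts in GENCODE 29, so the order depends on those lengths. In the shControl group OAZ1 stood highest, at 5166 ± 153 normalized counts per kilobase (SD, n = 3), followed by SAT1 at 4971 ± 43.2, and the ranges of these genes overlapped. SRM at 1928 ± 18.3 and SMS at 1903 ± 41.7 came next, also with overlapping ranges. ODC1 followed at 1428 ± 18.9, then AZIN1 at 1041 ± 13.6, AMD1 at 991 ± 25.5 and OAZ2 at 975 ± 18.9, and the ranges of AMD1 and OAZ2 overlapped. SMOX stood at 696 ± 26.7 and PAOX at 70.0 ± 3.40.

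In the shZDHHC20 group the order differed at SRM, which moved from rank 3 to rank 6, at 1070 ± 136 per kilobase. SMS at 2133 ± 86.1 and ODC1 at 1408 ± 25.4 then stood above it without overlap between their ranges and its own. The ranges of AZIN1, SRM, AMD1 and OAZ2 overlapped from each gene to the next.

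**Figure D4:**
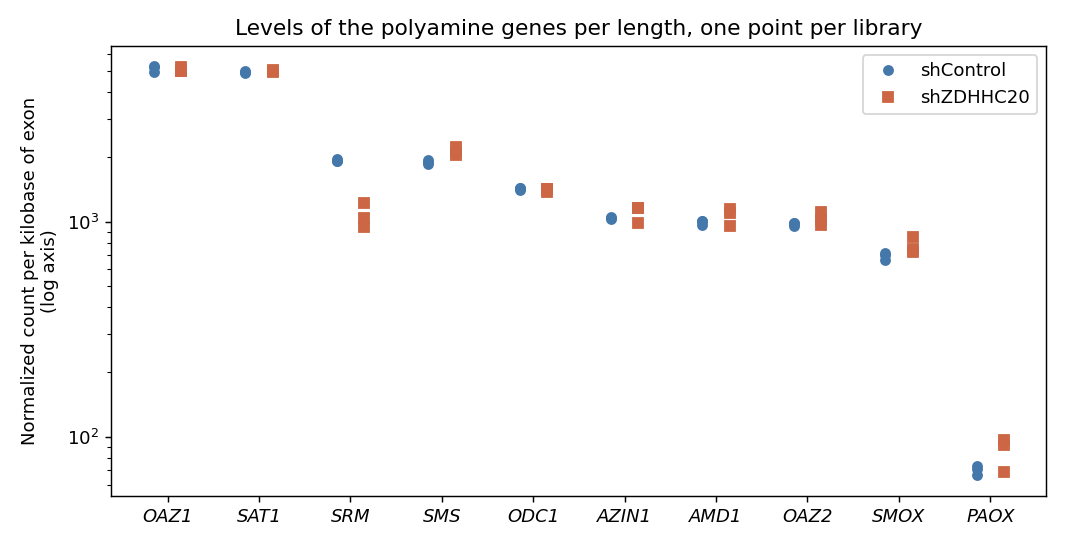
The vertical axis is the normalized count per kilobase of exon on a log axis, with the 10 polyamine genes in the order of their shControl means. Blue circles are shControl libraries and orange squares shZDHHC20 libraries, 3 of each per gene. SRM drops from about the level of SMS, near 1928, to 1070, and PAOX sits far below the other genes in both groups.

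A wider list of 35 genes around the pathway was read as well, of which 32 were analysed and 30 passed the filter on low values. At an adjusted p under 0.05, 3 of the 30 were lower in the shZDHHC20 group and 1 higher, where 6.84% and 4.61% of all genes tested were, so the list is not set apart from the table by its calls. Without shZDHHC20 replicate 2, 7 passed, but the calls over all genes tested rose as well, from 2541 of 22189 to 4454 of 22258. The median log2 fold change was 0.03, beside 0.01 over all genes tested. The 4 genes called were ENOPH1, ADI1, SLC3A2 and AZIN2.

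Methylthioadenosine, the by-product that SRM and SMS release, is returned to methionine by a chain of enzymes that starts with MTAP. ENOPH1, a later enzyme of that chain, was at 800.3, 840 and 788 in shControl replicates 1, 2 and 3 and at 590, 525 and 587 in shZDHHC20 replicates 1, 2 and 3. The groups did not overlap, and the log2 fold change was -0.51 (SE 0.0731, limma adjusted p = 0.000536). ADI1, which acts directly after ENOPH1, was at 735, 717 and 760 in the shControl replicates and at 955, 883 and 930 in the shZDHHC20 replicates, a rise of 0.32 on the log2 scale (SE 0.0652, limma adjusted p = 0.00604). These neighbours in the chain thus moved in opposite directions without overlap between groups. ADI1 overlaps non-coding genes on the other strand and has 3 pseudogenes by name. MRI1, with a log2 fold change of -0.19, and APIP, with 0.12, the enzymes between MTAP and ENOPH1, did not pass (limma adjusted p = 0.337 and 0.455).

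MTAP itself was listed between 0 and 7.70 in the 6 libraries, so no change could be measured. It overlaps another protein-coding gene, AL359922.1, on the same strand, with which its reads could be split. MAT2A, which makes S-adenosylmethionine, was among the most abundant genes of the list, at 17719 ± 181 in the shControl group and 17421 ± 561 in the shZDHHC20 group (SD, n = 3 in each), with a log2 fold change of -0.02 and a 95% CI from -0.11 to 0.06.

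SLC3A2, the heavy chain of several amino acid transporters that has also been linked to polyamine export, was at 6046, 5741 and 6081 in shControl replicates 1, 2 and 3 and at 4254, 4957 and 4308 in shZDHHC20 replicates 1, 2 and 3. The groups did not overlap, with replicate 2 the highest of the silenced libraries, and the log2 fold change was -0.41 (SE 0.0594, limma adjusted p = 0.000662). AZIN2, a less abundant homologue of AZIN1, was at 76.8, 88.4 and 101 in the shControl replicates and at 43.5, 71.4 and 51.0 in the shZDHHC20 replicates. Its log2 fold change was -0.70 (SE 0.21, limma adjusted p = 0.0457), and it lost this call in 10 of the 15 alternatives, with an adjusted p of up to 0.197. ATP13A3 and ATP13A2, ATPases that carry polyamines across endosomal and lysosomal membranes, had log2 fold changes of -0.09 and 0.05 (limma adjusted p = 0.299 and 0.672).

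Of the genes listed for ornithine and arginine supply, 7 were tested and 0 passed limma's test at an adjusted p under 0.05 or, unadjusted, at a p under 0.05. OAT, the mitochondrial ornithine aminotransferase and the most abundant of them, had means of 2279 ± 19.1 in shControl and 2409 ± 132 in shZDHHC20 (SD, n = 3 each), a log2 fold change of 0.08 (95% CI -0.04 to 0.20). Without shZDHHC20 replicate 2, OAT was at 0.12 on the log2 scale and passed (limma adjusted p = 0.0389). Of the arginases, which cleave arginine to ornithine, ARG1 had a mean of 1.33 in the shControl group and 0.666 in the shZDHHC20 group, and ARG2 was at no more than 17.0 in any library.

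Spermidine is also the donor for hypusine, an amino acid found in the translation factor EIF5A. EIF5A was at 7688, 7123 and 7443 in shControl replicates 1, 2 and 3 and at 5746, 7359 and 5876 in shZDHHC20 replicates 1, 2 and 3. Replicate 2 of the shZDHHC20 group lay within the shControl range and replicates 1 and 3 lay below it, and the log2 fold change of -0.24 did not pass (limma adjusted p = 0.0666). EIF5A did pass without shZDHHC20 replicate 2, at -0.35 (limma adjusted p = 3.37e-06), and with a pseudocount of 1 (limma adjusted p = 0.0425). EIF5A has 3 pseudogenes by name. Of the enzymes that make hypusine, DOHH had a log2 fold change of 0.11 (limma adjusted p = 0.655), which turned to -0.07 without shZDHHC20 replicate 2. DHPS was at only 17.3 to 62.9 in the 6 libraries and overlaps WDR83 on the other strand and AC010422.8 on the same strand, so reads could be lost from it. Its log2 fold change was -0.51 (limma adjusted p = 0.483), and -1.05 without shZDHHC20 replicate 2 (limma adjusted p = 0.0207).

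**Figure D5:**
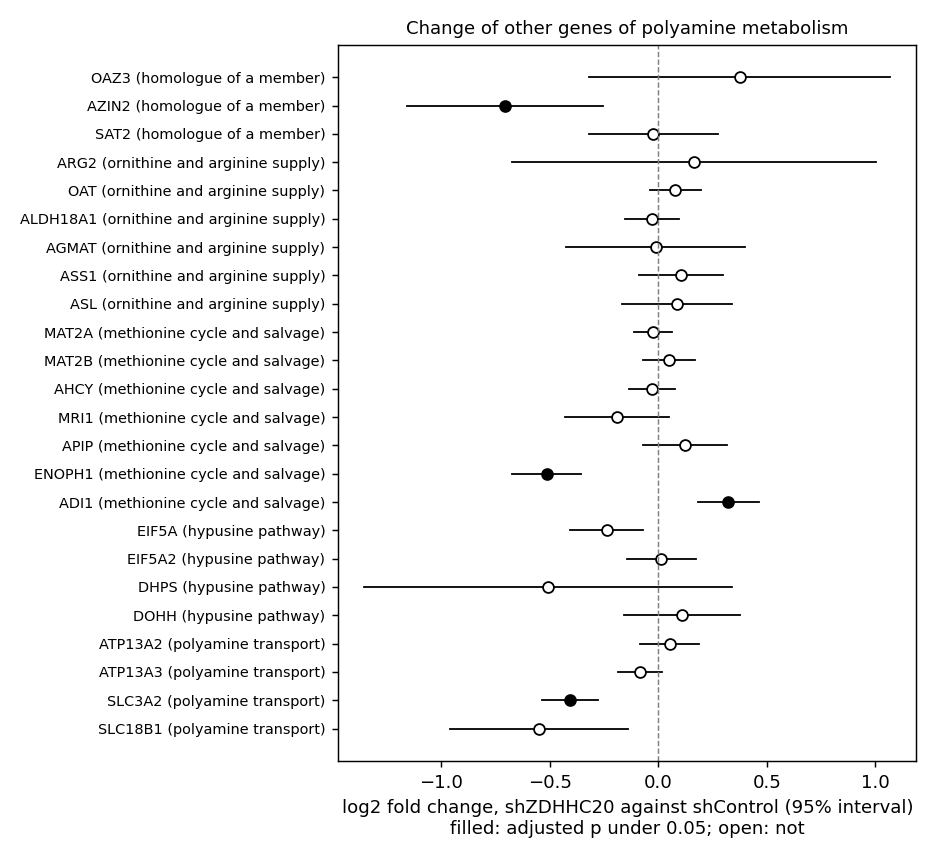
The horizontal axis is the log2 fold change of shZDHHC20 against shControl for the 24 genes of the wider list whose mean over the 6 libraries reached 10 normalized counts, each with its role in brackets. Circles are estimates over 3 libraries against 3, bars are 95% intervals, and filled circles have an adjusted p under 0.05. AZIN2, ENOPH1 and SLC3A2 are filled below 0 and ADI1 above.

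MYC fell in the same libraries, from 1870 ± 89.1 to 1240 ± 26.8 (SD, n = 3 in each group), which is 66.3% of the control, while SRM was at 55.5% and ODC1 at 98.5% of theirs. Whether the changes of MYC and SRM are connected was not tested.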

How the data were processed

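RNA-seq libraries of PANC-1 cells, 3 shControl and 3 shZDHHC20, were compared by the group and replicate number in the sample titles; the columns of the table name the groups NC and siZDHHC20. The authors deposited 1 normalized signal per gene and library. The file is named as FPKM, but 100% of the values are whole multiples of the smallest value of their library (within 0.05 of a step), as counts divided by a size factor would be. The libraries held between 16575546 and 18441049 such steps. The count test that had been planned was not run. The submitters' processing notes name hg19; the aligner, counter and annotation are not given in the sources used here.

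Symbols were matched for 27175 of 27394 identifiers, and positions, lengths and overlaps came from GENCODE 29 (GRCh38). A pseudocount of 0.1 was added, genes with a mean of at least 1 were kept (22189), and limma 3.58.1 in R 4.3.3 was fitted across all genes with a mean-variance trend, two-sided, with Benjamini-Hochberg adjustment and a threshold of 0.05. It stands in for the unpaired two-group test named in the study's methods. In simulated data, 195 of 200 genes changed 1.5-fold were recovered, with 4 calls among 21711 unchanged genes. The changed genes were drawn only from the more abundant ones, and all simulated libraries had the same spread. Recovery of low genes, and the effect of an outlying library such as shZDHHC20 replicate 2, were therefore not covered.

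The text names all 10 polyamine genes, ZDHHC20 and MYC, each gene of the wider list past the threshold and, for roles with none, the most abundant gene. The other wider-list genes given were chosen after their values were seen. The genes and lists were chosen with earlier results of these data known. The precision is limited by 3 libraries per group. Alternatives were other pseudocounts (1 and 0.01), filters (none, and a mean of at least 5) and scalings (median-ratio, quantile, equal totals), the fit without the mean-variance trend or with a replicate block, and the removal of each library in turn.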

Additional observations from a re-analysis of the deposited data

How the results depend on the processing

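SRM kept its direction and its adjusted p under 0.05 in all 15 alternatives, with log2 fold changes from -0.95 to -0.77, and it was the gene past the study's criteria in each of them and with a fold from the ratio of means or an adjusted p under 0.01. The number of the 10 genes past the threshold was 2 as reported and 1 with a pseudocount of 0.01, with no filter on low values, without the mean-variance trend, and with a replicate block. It ran from 1 to 4 when each library was left out, 4 without shZDHHC20 replicate 2. Over all genes tested, 2541 of 22189 passed as reported and 351 without the mean-variance trend. With a library left out, 1233 to 4454 passed, the most without shZDHHC20 replicate 2. The number whose groups did not overlap was 3, 4 with quantile normalization and 5 with each library scaled to the same total, and from 3 to 5 when libraries were left out, 5 without shZDHHC20 replicate 2 or 3. The share over all genes was not counted in these settings, and groups of fewer libraries separate more easily. With equal totals the median log2 fold change of all genes was 0.0563, against 0.0132 as reported. In the wider list 4 genes passed, 0 in limma without the mean-variance trend (5 at an unadjusted p under 0.05), and from 3 to 7 when libraries were left out, 7 without shZDHHC20 replicate 2 (with OAT, EIF5A and DHPS added). SLC3A2, ENOPH1 and ADI1 lost their calls only without that trend. Among the 10 polyamine genes the sign of 2 changes near 0 turned. ODC1 was at 0.0209 with each library scaled to the same total. OAZ1 was at 0.0249 with equal totals and 0.0127 with quantile normalization. Signs in the wider list turned as well, such as that of MAT2A, at 0.0306 with quantile normalization. The causes were not tested. Same-numbered libraries had correlations of -0.0948, -0.156 and -0.0771 between their deviations from the group means. No pairing by replicate number was seen, and 3 libraries per group are too few to decide it. The replicate block took away the calls of SMS (adjusted p = 0.107 from limma) and AZIN2 (0.0503). Count tests with edgeR and DESeq2 had been planned and were not run, because a check of units did not accept the steps of the shControl libraries as whole reads. PAOX, MTAP and AZIN2 have low values, which limits the changes that can be seen in them.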

Other observations

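MTAP, which opens the salvage of the by-product of spermidine and spermine synthesis, was at 7.07, 4.02 and 0 in shControl replicates 1, 2 and 3 and at 2.12, 0.939 and 7.70 in shZDHHC20 replicates 1, 2 and 3, although its coding transcripts cover 12935 bases of exon. It shares its strand with the overlapping protein-coding gene AL359922.1. Its nearest other protein-coding neighbours on chromosome 9 with a value, chosen after these values were seen, were mixed. Neighbours without a value were left out, so the region around MTAP is not fully covered. Of those with a value, IFNE lay nearest before MTAP and DMRTA1 nearest after it. KLHL9 stood between 994 and 1230 over the 6 libraries and FOCAD between 694 and 873, while IFNE stood between 2.82 and 12.5, DMRTA1 between 28.3 and 64.7, MLLT3 between 28.9 and 50.9 and HACD4 between 4.81 and 10.6. The later enzymes of the chain, MRI1, APIP, ENOPH1 and ADI1, were between 195 and 955 in every library. The copy number of MTAP in these cells was not tested.

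AMD1 and AZIN1 had values above every shControl library in shZDHHC20 replicates 1 and 3 and below every shControl library in replicate 2. In EIF5A replicates 1 and 3 lay below the shControl range and replicate 2 within it. Mixed directions of this kind within a group rest on 1 library and were not tested further.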
